A study of Mus musculus with 18 samples.

Results

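The tumour suppressor p53 and 9 of its best known target genes were followed in the prostate of TRAMP mice with and without a mutation of Elac2. The 10 genes are Trp53, which encodes p53, and the targets Cdkn1a, Mdm2, Ccng1, Bax, Bbc3, Phlda3, Sesn2, Eda2r and Trp53inp1. They were taken by symbol from the 55469 gene rows of the deposited tables, each matched 1 row, and all 10 passed the filter on low values in every comparison. Total RNA of the ventral and lateral prostate lobes was sequenced from 18 male mice of strain C56NL/6N, littermate-matched, with 3 mice in each of 6 groups. The lines are named WT-TRAMP, KO-TRAMP and A537T-TRAMP, each sampled at ages of 10 and 30 weeks.

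All 18 mice, controls included, carried 1 copy of the TRAMP transgene, in which a probasin promoter expresses both T antigens of SV40 (large and small) in the epithelium of the prostate. WT-TRAMP mice had wild-type Elac2, which encodes the enzyme that trims the 3′ ends of tRNA precursors. KO-TRAMP mice lacked exon 8 of both Elac2 copies where Cre under a probasin promoter (Pb-Cre) was active, so that stroma, vessels and immune cells of the lobes kept the gene. A537T-TRAMP mice carried the Ala537Thr substitution on both copies in every cell. The same WT-TRAMP mice served as controls for both mutant lines at each age, so the 2 comparisons of an age are not independent of each other.

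The p53 protein is a transcription factor that is stabilised by DNA damage and other stress and then switches on genes that stop the cell cycle, repair DNA or start cell death. Its abundance is set mainly by protein turnover, through the ubiquitin ligase Mdm2, which is itself a p53 target and so closes a feedback loop. In TRAMP epithelium the large T antigen binds p53 protein, which then accumulates without its normal activity, and it binds the retinoblastoma protein as well. A transcript level of Trp53 is therefore no measure of p53 activity, and the transcript levels of the targets are the readout that RNA sequencing offers.

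The promoter windows of the genes show where p53 could contact them, and are given for the 5 members that hold a match. RefSeq promoters of build GRCm38.p6, 250 bases before to 50 bases after a start site, were found for 9 of the 10 members, in 12 windows. Trp53inp1 had no entry. The p53 decamer, which reads purines, then a core of C, a pair of A or T, and G, then pyrimidines, is the same on both strands and was searched as a perfect match. It stood in a window of 5 of the 9 members (55.6%), against 2582 of 27025 genes (9.55%). Of 29 other p53 targets with an entry, from a list described further below, 11 held it (37.9%). A p53 response element is a pair of decamers with up to 13 bases between them. Such a pair stood in 20 of 27025 genes (0.0740%), in 0 of the 29 other targets and, among the members, in Cdkn1a. Its decamers began 73 and 51 bases before the start of the upstream of its windows, with 12 bases between them. The other Cdkn1a window held no match. Directly after the second decamer stand 10 bases that miss the motif only at their first letter. Near matches were not searched, so a pairing with these bases is not marked. A match describes the letters and no binding was measured here. The stretches below run 5′ to 3′ on the strand of the gene, with the decamers in capitals.
Cdkn1a, window chr17:29090729-29091028, plus strand: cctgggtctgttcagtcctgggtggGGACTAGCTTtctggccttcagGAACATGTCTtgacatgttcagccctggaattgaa
Trp53, window chr11:69580109-69580408, plus strand, decamer 75 bases before the start: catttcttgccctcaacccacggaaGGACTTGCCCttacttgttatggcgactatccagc
Mdm2, window chr10:117710709-117711008, minus strand, decamer 186 bases before the start: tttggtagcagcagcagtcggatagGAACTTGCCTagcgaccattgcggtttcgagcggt
Ccng1, window chr11:40755237-40755536, minus strand, decamer 185 bases before the start: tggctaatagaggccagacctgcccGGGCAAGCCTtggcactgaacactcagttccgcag
Bax, window chr7:45466849-45467148, minus strand, decamer 201 bases before the start: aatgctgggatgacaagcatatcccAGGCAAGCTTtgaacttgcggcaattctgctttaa

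The members differed widely in level. Per kilobase of exon, in reads per 1000000 reads of the library (RPM), Ccng1 stood highest in WT-TRAMP mice at 10 weeks with 23.8, followed by Mdm2 with 11.3, Bax with 9.43, Trp53 with 6.51, Trp53inp1 with 5.29 and Sesn2 with 3.09. Phlda3 stood at 1.32, Cdkn1a at 0.534, Bbc3 at 0.482 and Eda2r at 0.436 RPM per kilobase. The SDs of the 3 lowest overlap, so their order is not resolved. Bbc3 rested on 6 to 34 reads per library and Cdkn1a on 15 to 218 reads, so that sampling of reads limits both. On GRCm38 the protein-coding members lie at Trp53 (chromosome 11, 69580359 to 69591873, ENSMUSG00000059552.13), Cdkn1a (chromosome 17, 29090976 to 29100727), Mdm2 (chromosome 10, 117688875 to 117710758), Ccng1 (chromosome 11, 40748552 to 40755311) and Bax (chromosome 7, 45461697 to 45466898). The others lie at Bbc3 (chromosome 7, 16308393 to 16318205), Phlda3 (chromosome 1, 135766119 to 135769136), Sesn2 (chromosome 4, 132492032 to 132510501), Eda2r (chromosome X, 97333840 to 97377216) and Trp53inp1 (chromosome 4, 11156431 to 11174379). Trp53 shares 8.79% of its 31-base words with the pseudogene Trp53-ps, and Bax shares 9.89% with Gm45808, which overlaps it on the same strand, so a small part of their reads is uncertain.

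The libraries, numbered 1 to 18 as in the table headers, held 9380174 to 14830104 recovered reads, whole counts that depend in part on the table. Elac2 transcript did not separate the groups, with 254 to 301 normalised counts in KO-TRAMP against 289 to 359 in WT-TRAMP at 10 weeks (log2 fold change −0.22, limma adjusted p 0.808) and 249 to 267 against 251 to 319.6 at 30 weeks (−0.19, limma adjusted p 0.522). Counts over the whole gene cover the exons that remain and cells without Cre, so the labels could be checked only in part. Luminal prostate markers took 0.201% to 0.360% of reads in all 18 libraries. The 8 seminal vesicle markers took 0.0487% to 9.05% of reads in A537T-TRAMP at 10 weeks, all 8 above 0 and their sum highest in library 5, against 0.0002% to 0.0005% in WT-TRAMP, where Svs3a was at 0 in all 3 libraries, and 0.0009% to 1.63% in KO-TRAMP. At 30 weeks they ranged from 0.0001% to 4.35% in WT-TRAMP, 0.0007% to 0.266% in KO-TRAMP and 0.0003% to 5.45% in A537T-TRAMP. The 8 neuroendocrine markers took 0.144% and 0.0900% of reads in KO-TRAMP libraries 17 and 18 and 0.0003% in library 16, where Chgb, Scg2 and Snap25 were at 0. In WT-TRAMP at 30 weeks they took 0.0001% to 0.0121%. Where 2 libraries of a group differed over 4-fold, 97.2% of 646 genes in library 12 lay between libraries 10 and 11, at a median of 0.42 of the way from 11 to 10 (quartiles 0.35 and 0.50). Likewise 98.2% of 1482 genes in library 18 lay between libraries 16 and 17, at 0.40 of the way from 17 to 16 (quartiles 0.34 and 0.47). In the other 16 libraries that share was 4.07% to 83.6%. The independence of libraries 12 and 18 from the others of their group is therefore in doubt, and with it the n of 3 and the p-values at 30 weeks. The central knockout values of that age are given with and without both.

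No member passed the test in any comparison. Differences between mutant and WT-TRAMP mice were tested with limma on log2 normalised counts across all genes, at a Benjamini-Hochberg adjusted p under 0.05. In KO-TRAMP at 10 weeks 0 of 10 members passed, where 0.0129% of 15451 genes did, and in A537T-TRAMP at 10 weeks 0 of 10 passed, where 0.00648% of 15438 genes did. In KO-TRAMP at 30 weeks 0 of 10 passed against 0.213% of 16900 genes. In A537T-TRAMP at 30 weeks 0 of 10 members and 0 (0%) of 16261 genes passed, although 1173 genes and 2 members had an unadjusted p under 0.05, DESeq2 called 165 genes and edgeR called 0. The members with an unadjusted p under 0.05 numbered 1, 1, 2 and 2 in the 4 comparisons, and edgeR gave 1, 2, 2 and 2 and DESeq2 gave 1, 1, 2 and 2. Over all genes limma gave such a p for 6.64%, 7.89%, 13.5% and 7.21%. The whole table thus yielded few calls, and the missed threshold does not show that the members were alike. In bulk tissue a lower level from fewer cells of a type cannot be told apart from less RNA per cell.

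As a group the 10 genes did not move one way in the knockout. In KO-TRAMP 5 were higher and 5 lower at both ages, with median log2 fold changes of 0.00 at 10 weeks and 0.09 at 30 weeks, where all genes had −0.01 and 0.01. In A537T-TRAMP 8 were higher and 2 lower at 10 weeks (median 0.27, all genes −0.01), and 9 higher and 1 lower at 30 weeks (median 0.27, all genes 0.00). None of these medians carries a test. At 10 weeks the A537T-TRAMP median rested on library 5, since without it 5 members were higher and 5 lower with a median of 0.01. At 30 weeks all 3 A537T-TRAMP libraries had positive medians over the 10 members against the WT-TRAMP mean, at 0.13, 0.27 and 0.20 on the log2 scale.

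**Figure D1:**
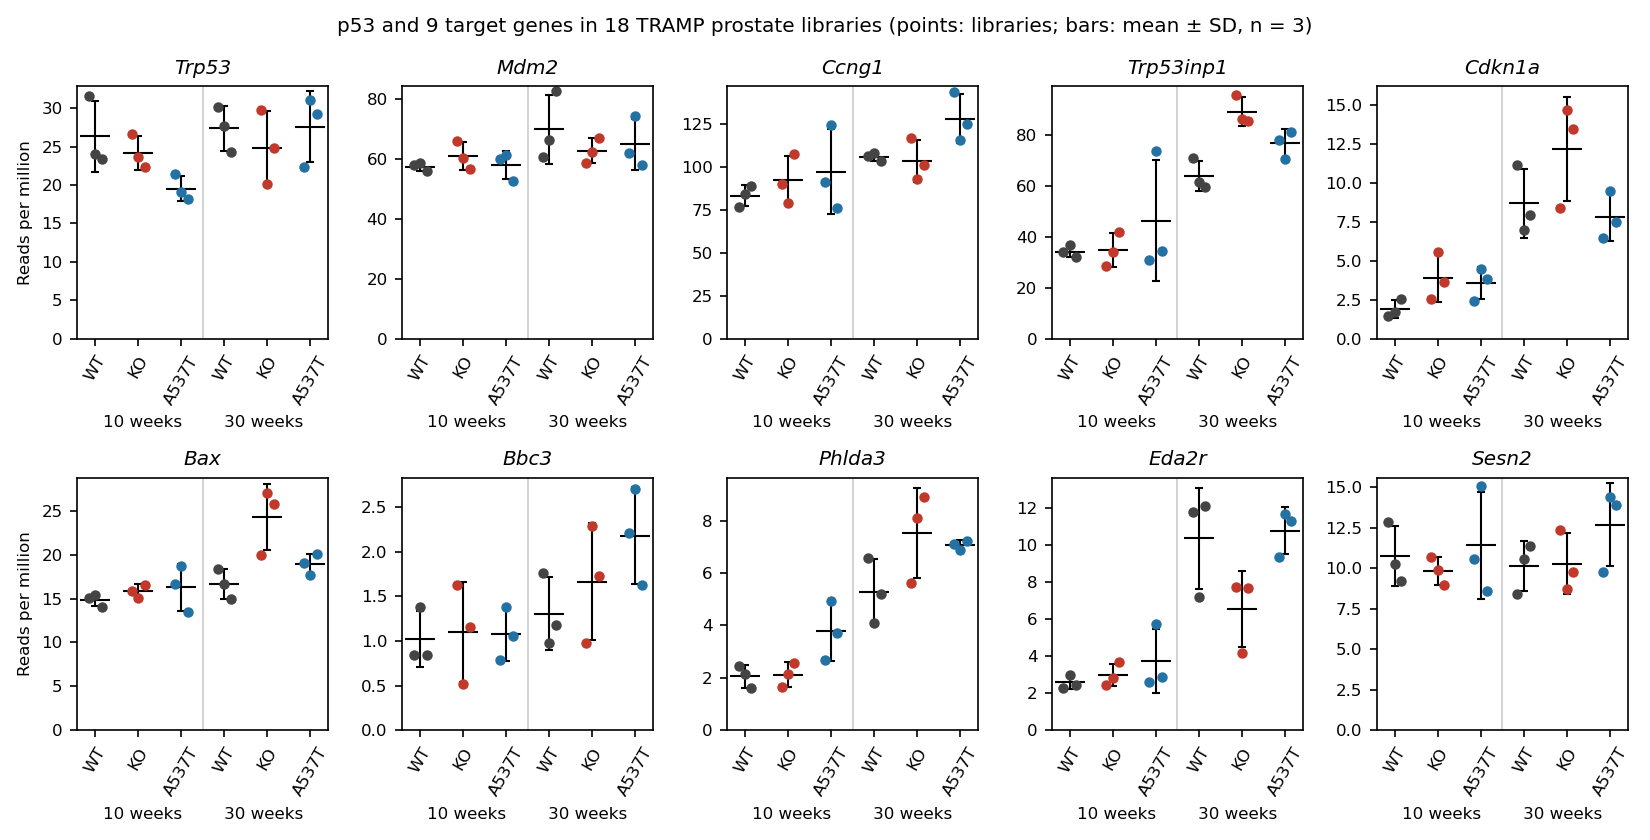
Level of each of the 10 genes in RPM (linear axes starting at 0), 1 panel per gene, with 1 point per library and bars for mean ± SD (n = 3) in each line at 10 and 30 weeks. Cdkn1a, Eda2r and Phlda3 stand higher at 30 than at 10 weeks in all 3 lines, while the ages overlap for Sesn2 in all 3.

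Trp53, the gene of p53 itself, overlapped its controls in normalised counts in every comparison. At 10 weeks WT-TRAMP libraries had 362, 281 and 274 normalised counts and KO-TRAMP libraries 293, 269 and 247, and the groups overlapped (log2 fold change −0.17, SE 0.15, limma adjusted p 0.872). In the table of A537T-TRAMP, scaled separately, WT-TRAMP had 319.7, 249 and 240.4 and A537T-TRAMP 221, 243 and 197 (−0.28, SE 0.17, limma adjusted p 0.617). In each line 2 of the 3 mutant libraries lay below the lowest control and 1 lay within the range of the controls. In RPM, all A537T-TRAMP values at this age (18.2 to 21.4) lay below those of WT-TRAMP (23.3 to 31.6), so the overlap depended on the scaling. At 30 weeks KO-TRAMP had 344, 217 and 269 against 344, 324 and 283 (−0.21, SE 0.20, limma adjusted p 0.591), and A537T-TRAMP had 257, 355 and 323 against 317, 298 and 259 (0.09, SE 0.16, limma adjusted p 0.929). The 95% intervals of the 4 log2 fold changes ran from −0.70 to 0.46, so differences of up to that size remained compatible with these mice.

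Mdm2, the ligase that marks p53 for degradation, overlapped its controls in every comparison. Its normalised counts at 10 weeks ran from 656 to 687 in WT-TRAMP and from 628 to 727 in KO-TRAMP, a log2 fold change of 0.02 (95% interval −0.21 to 0.26, limma adjusted p 0.975). In A537T-TRAMP they ran from 569.9 to 786 against 582 to 613 (0.13, interval −0.22 to 0.49, limma adjusted p 0.772), with the highest value in library 5. At 30 weeks KO-TRAMP had 674 to 730.0 against 692 to 962 in WT-TRAMP (−0.21, interval −0.56 to 0.14, limma adjusted p 0.498), and A537T-TRAMP had 639 to 853 against 614 to 848 (0.04, limma adjusted p 0.974). The control that set the upper end at 30 weeks was library 12 in both tables.

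Ccng1, which encodes cyclin G1, a regulator of the p53 and Mdm2 loop, stood apart from its controls in A537T-TRAMP at 30 weeks. The A537T-TRAMP libraries had 1655, 1327 and 1379 normalised counts and the WT-TRAMP libraries 1127, 1173 and 1106, without overlap. The log2 fold change was 0.35 (SE 0.11, 95% interval 0.10 to 0.60, limma adjusted p 0.625), or 1.27-fold. At 10 weeks A537T-TRAMP had 944, 1593 and 828 against 789.7, 890.1 and 935, and the excess lay in library 5 (0.31 with it, 0.02 without it). In KO-TRAMP the gene differed little, at 0.08 at 10 weeks and −0.10 at 30 weeks (limma adjusted p 0.940 and 0.702).

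Trp53inp1, a p53-induced nuclear protein that assists p53 in cell death and autophagy, stood above its controls in both lines at 30 weeks. KO-TRAMP libraries had 1107, 933 and 932 normalised counts against 809, 722 and 694 in WT-TRAMP. The groups did not overlap and the log2 fold change was 0.42 (SE 0.12, 95% interval 0.12 to 0.71, limma adjusted p 0.327), or 1.33-fold. With libraries 12 and 18 both left out it was 0.41 (limma adjusted p 0.986), and without library 16 it was 0.33 (limma adjusted p 0.0821). A537T-TRAMP libraries had 900.4, 808 and 898 against 731, 647 and 623, again without overlap (0.38, SE 0.10, interval 0.14 to 0.63, limma adjusted p 0.566), or 1.30-fold, and 0.33 without library 12. These are the same 3 controls as in the knockout comparison. At 10 weeks KO-TRAMP had 315, 387 and 464 against 391.7, 429.9 and 376 (−0.05, limma adjusted p 0.965). A537T-TRAMP at 10 weeks had 319.8 and 373 in libraries 4 and 6 and 944 in library 5, against 347, 381 and 331, so that its log2 fold change of 0.45 (limma adjusted p 0.691) became −0.03 without library 5.

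Cdkn1a, which encodes the cyclin-dependent kinase inhibitor p21 and carries the pair of decamers printed above, had the largest log2 fold changes among the members at 10 weeks. KO-TRAMP libraries had 27.9, 63.7 and 40.4 normalised counts and WT-TRAMP libraries 16.6, 19.997 and 29.7. The lowest knockout library fell below the highest control, and the log2 fold change was 0.92 (SE 0.39, 95% interval 0.03 to 1.82, limma adjusted p 0.742), or 1.89-fold. In A537T-TRAMP the libraries had 25.2, 57.5 and 41.3 against 14.5, 17.3 and 26.3, which also overlapped (1.02, SE 0.42, interval 0.04 to 2.01, limma adjusted p 0.6004), or 2.03-fold. Without library 5 it was 0.75. The controls of these 2 comparisons are the same mice. At this age smooth muscle markers also stood higher in both mutant lines, at 0.0714% to 0.109% of reads in KO-TRAMP and 0.0959% to 0.213% in A537T-TRAMP against 0.0383% to 0.0629% in WT-TRAMP, and their part in the levels of the members was not tested. At 30 weeks KO-TRAMP had 96.7, 159 and 146 against 128, 81.6 and 92.3 (0.40, SE 0.28, limma adjusted p 0.492; 0.62 and 0.122 without library 16), and A537T-TRAMP had 74.6, 109 and 82.7 against 121, 77.1 and 87.5 (−0.10, SE 0.24, limma adjusted p 0.953). The A537T-TRAMP and WT-TRAMP values at 30 weeks overlapped over most of their range.

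**Figure D2:**
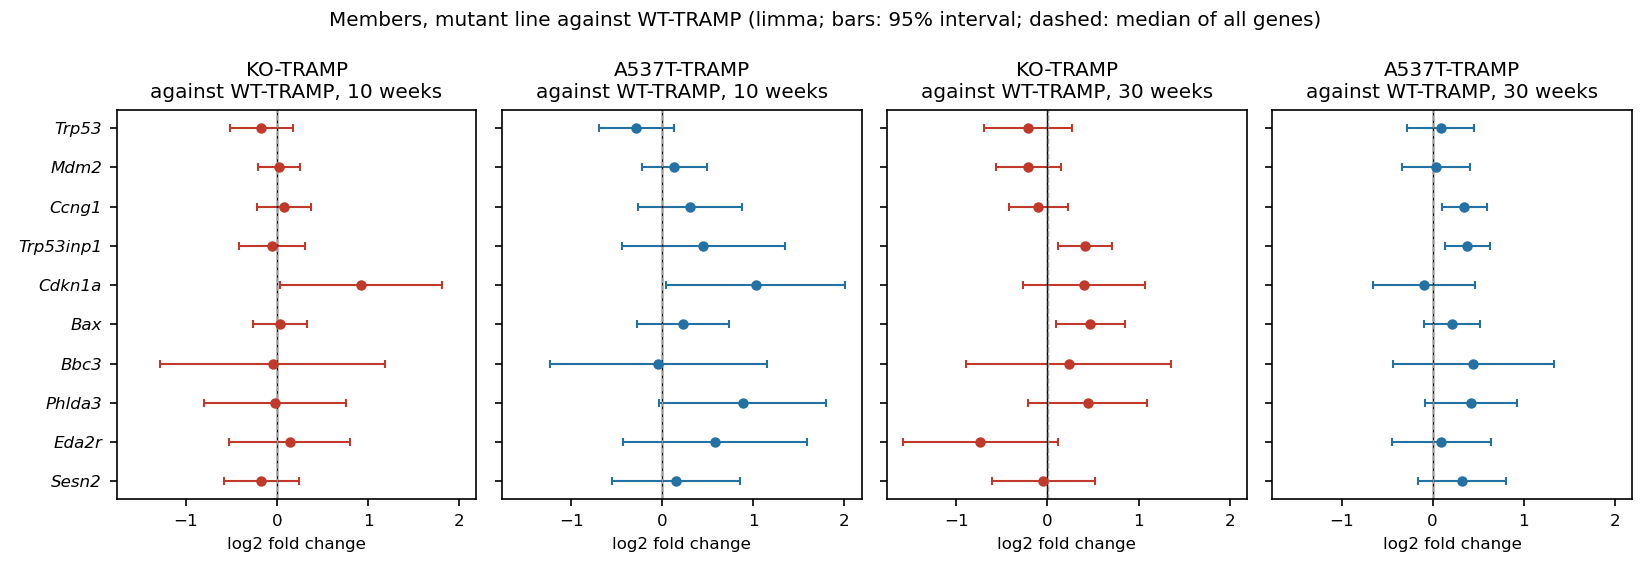
Log2 fold change of each gene in the mutant line against WT-TRAMP, with 95% intervals from the limma fits, in 4 panels, 1 per mutant line and age; the dashed line is the median of all genes tested. The intervals of Cdkn1a lie above 0 at 10 weeks in both lines, those of Bax and Trp53inp1 in KO-TRAMP and of Ccng1 and Trp53inp1 in A537T-TRAMP at 30 weeks, and no gene passed the adjusted threshold.

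Among the genes of cell death, Bax stood out in the knockout at 30 weeks. Bax forms the pores through which mitochondria release cytochrome c. KO-TRAMP libraries had 231, 293 and 281 normalised counts and WT-TRAMP libraries 210.4, 196 and 173, without overlap. The log2 fold change was 0.47 (SE 0.16, 95% interval 0.09 to 0.85, limma adjusted p 0.343), or 1.39-fold, and it was 0.57 without library 16 (limma adjusted p 0.0514) and 0.36 with libraries 12 and 18 both left out (limma adjusted p 0.986). At 10 weeks Bax in KO-TRAMP lay at 175, 171 and 184 against 172, 181 and 165 (0.03, interval −0.27 to 0.33, limma adjusted p 0.973). A537T-TRAMP at 30 weeks had 219.6, 203 and 221 against 203, 187 and 166 (0.21, SE 0.13, limma adjusted p 0.760). At 10 weeks A537T-TRAMP had 172, 239.8 and 146 against 155, 162 and 147 (0.23, limma adjusted p 0.716), or 0.03 without library 5.

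Bbc3, which encodes the BH3-only protein Puma, was too low to compare closely. Its normalised counts ran from 5.88 to 31.004 over all libraries and tables, the SE of its log2 fold change was 0.38 to 0.54, and the limma adjusted p was 0.806 to 0.992. The 4 log2 fold changes ran from −0.05 to 0.45.

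Phlda3, a p53-induced inhibitor of Akt at the membrane, stood above its controls in A537T-TRAMP at both ages. At 10 weeks the libraries had 27.7, 63.0 and 40.1 normalised counts against 26.5, 23.0 and 17.2, without overlap although the lowest mutant and the highest control nearly met (0.88, SE 0.39, limma adjusted p 0.6004; 0.58 without library 5). At 30 weeks they had 81.9, 78.7 and 79.7 against 74.8, 47.5 and 59.7, also without overlap (0.42, SE 0.22, limma adjusted p 0.723). The knockout differed less at 10 weeks, with 17.98, 24.5 and 28.5 against 28.0, 24.996 and 18.7 (−0.02, interval −0.80 to 0.76, limma adjusted p 0.996). At 30 weeks KO-TRAMP had 64.8, 87.5 and 97.1 against 74.97, 48.0 and 60.4 (0.44, SE 0.27, limma adjusted p 0.455).

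Eda2r, a death receptor of the tumour necrosis factor family that binds ectodysplasin A2, gave the lowest value among the members in the knockout at 30 weeks. KO-TRAMP libraries had 89.5, 45.2 and 83.5 normalised counts and WT-TRAMP libraries 134, 84.5 and 140.2. The groups met at 84.5 and 89.5, and the log2 fold change was −0.74 (SE 0.35, 95% interval −1.58 to 0.11, limma adjusted p 0.396), or 0.601-fold. It was −0.91 without library 16 (limma adjusted p 0.130) and −0.73 with libraries 12 and 18 both left out. In A537T-TRAMP at the same age the values were 107, 134 and 125 against 131, 81.6 and 137 (0.10, limma adjusted p 0.950). At 10 weeks the log2 fold change was 0.14 in the knockout and 0.58 in A537T-TRAMP (limma adjusted p 0.952 and 0.655), the latter with 72.9 normalised counts in library 5 and at most 30.96 in the other two, or 0.14 without library 5.

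Sesn2, a stress-induced inhibitor of the growth regulator mTORC1, overlapped its controls in every comparison. Its normalised counts were 99.2 to 118 in KO-TRAMP against 108 to 147 at 10 weeks (−0.18, limma adjusted p 0.888) and 94.0 to 143 against 96.2 to 132 at 30 weeks (−0.05, limma adjusted p 0.926). In A537T-TRAMP the log2 fold change was 0.15 at 10 weeks and 0.33 at 30 weeks (limma adjusted p 0.877 and 0.765). At 30 weeks the A537T-TRAMP values ran from 112 to 165 against 94 to 128, with a middle value of 154 above the highest control.

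In normalised counts, groups that did not overlap were thus few and all in the direction of higher levels. In KO-TRAMP at 10 weeks no member was separated, where 5.77% of genes were higher and 6.26% lower without overlap. In A537T-TRAMP at 10 weeks 1 of 10 was higher (Phlda3), against 6.92% of genes higher and 6.53% lower. In KO-TRAMP at 30 weeks 2 of 10 were higher (Bax and Trp53inp1), against 10.8% of genes higher and 9.48% lower. In A537T-TRAMP at 30 weeks 3 of 10 were higher (Ccng1, Phlda3 and Trp53inp1), against 7.36% of genes higher and 6.03% lower. The separation depended on the scale for 2 members. In RPM, with WT-TRAMP values from the knockout table, Trp53 in A537T-TRAMP at 10 weeks lay below WT-TRAMP without overlap. Trp53inp1 in A537T-TRAMP at 30 weeks overlapped its controls in RPM (lowest 70.7 against highest 70.9). Shares of all genes between lines were not counted in RPM. Each gene is 10% of the members, so counts this small are given as a description only.

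Of the 6 mutant libraries at 10 weeks, library 5 had the highest members. There 9 of 10 members lay above the WT-TRAMP mean of the same table, with a median log2 difference of 0.82, and the values were 1.57 for Cdkn1a, 1.48 for Phlda3, 1.45 for Eda2r, 1.42 for Trp53inp1, 0.87 for Ccng1 and 0.77 for Sesn2. The other A537T-TRAMP libraries of that age had medians of 0.05 and −0.07. Trp53 was the member below the mean, at −0.14. The same library had 9.05% of its reads in seminal vesicle markers, 0.213% in smooth muscle markers (0.0383% to 0.0629% in WT-TRAMP) and 0.0598% in proliferation markers, and the part of these in the members' levels was not tested. At 30 weeks library 14 of A537T-TRAMP had all 10 members above the WT-TRAMP mean, with a median of 0.27.

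**Figure D3:**
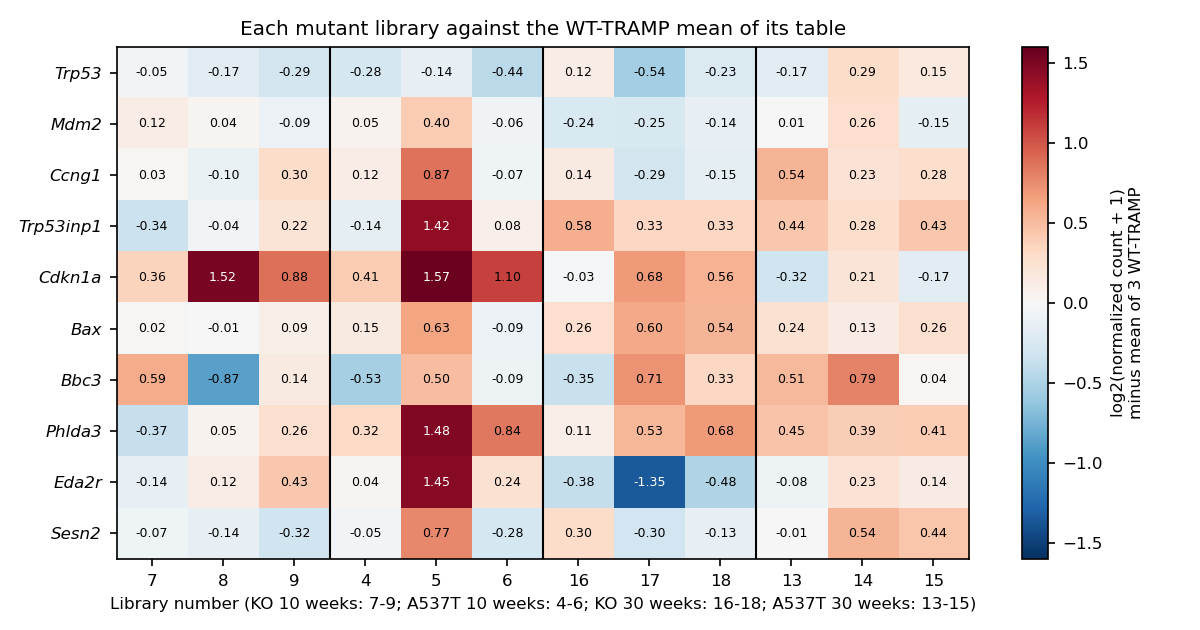
Log2 difference of each of the 12 mutant libraries (columns, by header number and group) from the WT-TRAMP mean of the same table, for the 10 genes (rows); the colour scale runs from lower to higher than WT-TRAMP. Library 5 is high for 9 genes with a median of 0.82, and library 14 is above the mean for all 10 with a median of 0.27.

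The question whether a mutant line departed from its controls differently at the 2 ages was tested as the effect at 30 weeks minus the effect at 10 weeks. No member passed, and no gene of the whole table did (0% of 15252 in KO-TRAMP and 0% of 15242 in A537T-TRAMP by limma, with 2054 and 927 at an unadjusted p under 0.05, of which 2 and 1 were members; edgeR also called 0). In KO-TRAMP the difference was 0.44 for Bax (SE 0.19, limma adjusted p 0.353), 0.47 for Trp53inp1 (SE 0.20, limma adjusted p 0.353) and −0.87 for Eda2r (SE 0.44, limma adjusted p 0.399). Without library 16 it was 0.54 for Bax (limma adjusted p 0.0731), in a fit where 11.6% of genes passed. In A537T-TRAMP the difference was −1.12 for Cdkn1a (SE 0.47, limma adjusted p 0.738), and for the other 9 members it lay between −0.48 and 0.49. The values for Cdkn1a were positive at 10 weeks and near 0 at 30 weeks in that line, but the difference did not pass the test.

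Between 10 and 30 weeks the levels of several targets differed by more than between lines. The ages were normalised in separate tables, so their levels are given in RPM as a description without a test, and age and table cannot be told apart. Cdkn1a stood at 1.45, 1.71 and 2.53 RPM in WT-TRAMP at 10 weeks and at 11.2, 6.95 and 7.95 RPM at 30 weeks. Every older mouse lay above every younger one, and the log2 ratio of the means was 2.20, against a median of 0.12 over all genes. In KO-TRAMP it stood at 2.53, 5.59 and 3.65 RPM and then 8.36, 14.7 and 13.4 RPM (1.63), and in A537T-TRAMP at 2.45, 4.50 and 3.81 RPM and then 6.48, 9.48 and 7.51 RPM (1.13). The spans did not overlap in any line.

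Eda2r behaved alike, with 2.29, 2.99 and 2.44 RPM at 10 weeks and 11.8, 7.19 and 12.1 RPM at 30 weeks in WT-TRAMP, a log2 ratio of 2.01. In KO-TRAMP the older mice reached 7.74, 4.18 and 7.68 RPM (1.13) and in A537T-TRAMP 9.33, 11.7 and 11.3 RPM (1.53). Phlda3 went from 2.44, 2.13 and 1.59 RPM to 6.57, 4.09 and 5.20 RPM in WT-TRAMP (1.36), with log2 ratios of 1.83 in the knockout and 0.91 in A537T-TRAMP. Trp53inp1 went from 34.2, 36.7 and 32.0 RPM to 70.9, 61.5 and 59.8 RPM in WT-TRAMP (0.90) and from 28.6, 34.0 and 41.9 RPM to 95.7, 86.3 and 85.6 RPM in KO-TRAMP (1.36). In A537T-TRAMP its ratio was 0.73 and the ages overlapped, because library 5 at 10 weeks had 73.9 RPM.

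Counted over the members, 6 of 10 were higher at 30 weeks without overlap in WT-TRAMP (the 4 genes above with Ccng1 at 0.35 and Mdm2 at 0.28), where 21.3% of 15764 genes were. None was lower, where 6.26% of genes were. In KO-TRAMP 5 of 10 were higher (the 4 with Bax at 0.62) against 17.6% of genes, and none lower against 7.7%. In A537T-TRAMP 5 of 10 were higher (Eda2r, Cdkn1a, Phlda3, Bbc3 at 1.02 and Trp53 at 0.50) against 11.3% of genes, and none lower against 0.9%. In A537T-TRAMP the count was 8 without library 5, where 15.6% of genes were higher, and 8 without library 14, where 18.8% were. Without library 4 it was 5, where 30.5% of genes were higher. In the other lines the largest all-gene share was 43.1% without library 16, with 6 members higher in KO-TRAMP, and 32% without library 11, with 6 members higher in WT-TRAMP. A wider list of other p53 targets, described further below, was counted in the same way where the mean was at least 1 RPM. Of these, 10 of 33 were higher at 30 weeks and 3 lower in WT-TRAMP. In KO-TRAMP 6 of 35 were higher and in A537T-TRAMP 4 of 36, with 0 lower in either. In both mutant lines the wider list thus lay near the share of all genes. Sesn2 differed little between ages, at −0.09 in WT-TRAMP, 0.06 in the knockout and 0.15 in A537T-TRAMP. Trp53 itself averaged 26.3 ± 4.60 RPM (SD, n = 3) at 10 weeks and 27.4 ± 2.89 RPM at 30 weeks in WT-TRAMP, 24.2 ± 2.19 and 24.9 ± 4.81 in KO-TRAMP, and 19.5 ± 1.66 and 27.6 ± 4.60 in A537T-TRAMP.

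Smooth muscle markers also differed with age in WT-TRAMP, while the ages overlapped in the mutant lines. In WT-TRAMP they took 0.0383% to 0.0629% of reads at 10 weeks and 0.123% to 0.216% at 30 weeks. In KO-TRAMP they took 0.0714% to 0.109% and 0.0628% to 0.333%, and in A537T-TRAMP 0.0959% to 0.213% and 0.0837% to 0.269%. In WT-TRAMP at 30 weeks seminal vesicle markers were above 1% in libraries 10 and 12. Library 11 had 0.0001% in seminal vesicle markers, with Svs3a, Svs3b and Svs6 at 0. Its levels were 6.95 RPM for Cdkn1a, 7.19 for Eda2r, 4.09 for Phlda3 and 61.5 for Trp53inp1, each above all 3 WT-TRAMP libraries at 10 weeks. For Cdkn1a, Eda2r and Phlda3 they were the lowest of the 3 WT-TRAMP values at 30 weeks. The part of smooth muscle and of seminal vesicle tissue in these levels was not tested. Pbsn, the endogenous probasin gene whose rat counterpart gave the transgene promoter, lay at 28.0 to 49.6 RPM in WT-TRAMP, 39.1 to 180.1 in KO-TRAMP and 111 to 122 in A537T-TRAMP at 10 weeks, and at 10.95 to 48.1, 3.91 to 14.7 and 22.1 to 116 RPM at 30 weeks. Transcripts of the T antigens were not analysed here.

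Beyond the 10 members, 38 other p53 targets and 15 regulators of p53 were listed, and none of the 53 passed the limma test in the 4 comparisons. Of these, 33 (KO-TRAMP) and 34 (A537T-TRAMP) other targets were tested at 10 weeks and 36 in each line at 30 weeks, and all 15 regulators each time. In the same order, their median log2 fold changes were −0.06, −0.06, −0.11 and 0.05 for the targets and −0.04, 0.06, −0.19 and 0.00 for the regulators. Unadjusted p under 0.05 was reached by 2, 2, 6 and 1 of them, or 4.17%, 4.08%, 11.8% and 1.96%, against 6.64%, 7.89%, 13.5% and 7.21% of all genes. The list of 9 other targets of cell cycle arrest, which also holds the mitotic gene Gtse1, had a median log2 fold change of 0.51 in the older knockout mice. Of these genes 5 were higher and 4 lower. The median was −0.09 for targets of cell death, −0.18 for DNA repair and −0.14 for metabolism and signalling. The 12 proliferation markers had a median of 0.59 in the same comparison, and their part was not tested.

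At 10 weeks the thiamine transporter gene Slc19a2 lay below its controls in both lines, which share them. It had 361.4, 296.7 and 374.7 normalised counts in KO-TRAMP against 432.8, 502.4 and 465.8 (−0.44, SE 0.13, limma adjusted p 0.716), and 363.8, 247.6 and 311.9 in A537T-TRAMP against 400.9, 466.3 and 429.3 (−0.50, SE 0.18, limma adjusted p 0.6004). Gtse1, a mitotic gene whose protein restrains p53, stood at 67.4, 67.6 and 56.0 in KO-TRAMP against 122.4, 97.5 and 72.7 (−0.58, limma adjusted p 0.737). Atm, the kinase that activates p53 after double-strand breaks, stood at 2580.7, 1768.4 and 1739.4 in A537T-TRAMP against 2836.5, 2685.2 and 2632.1 (−0.45, SE 0.17, limma adjusted p 0.6004). The values of these genes did not overlap between groups. Rprm, a mediator of arrest before mitosis, was near 0 in all libraries of that table (at most 4.6) but library 5, which had 70.7 (2.58, SE 1.31, limma adjusted p 0.6004). It passed the filter on low values only through library 5, so its value describes that library and not the line. The smallest p on the higher side in KO-TRAMP belonged to Apaf1, the scaffold of the apoptosome, at 0.36 (limma adjusted p 0.745), and Fdxr at 0.33 (limma adjusted p 0.832), and in A537T-TRAMP Fas, a death receptor, was at 0.58 (limma adjusted p 0.613).

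At 30 weeks Sfn, which encodes the 14-3-3 sigma protein that holds cells before mitosis, stood above its controls in both lines. KO-TRAMP libraries had 115.2, 237.6 and 176.5 normalised counts against 58.2, 90.2 and 88.9 (1.11, SE 0.33, limma adjusted p 0.327). A537T-TRAMP libraries had 92.6, 114.5 and 127.6 against 56.9, 87.0 and 86.4 (0.55, SE 0.23, limma adjusted p 0.691). Neither overlapped its controls, which are shared. In KO-TRAMP Gls2, a mitochondrial glutaminase, had 58.6, 60.5 and 54.3 against 33.6, 44.1 and 25.1 (0.77, SE 0.29, limma adjusted p 0.359), while Ephx1, an epoxide hydrolase, had 468.1, 428.6 and 443.8 against 774.3, 572.9 and 630.3 (−0.55, SE 0.14, limma adjusted p 0.298). Pml, the organiser of nuclear bodies, had 1168.8, 426.4 and 691.3 against 1276.8, 1360.8 and 1264.1 (−0.89, SE 0.35, limma adjusted p 0.364), with its highest value in library 16. In A537T-TRAMP the values for Cop1, Polh and Hipk2 were 0.27, −0.28 and −0.27 (limma adjusted p 0.721, 0.703 and 0.782). For the difference between ages the smallest p in KO-TRAMP belonged to Sfn (1.30, SE 0.38, limma adjusted p 0.255), followed by Btg2 at 0.94, Apaf1 at −0.91 and Ep300 at −0.61. In A537T-TRAMP it was 0.39 for Ei24, 0.46 for Atm, −0.16 for Usp7 and −2.22 for Rprm, with limma adjusted p from 0.738 to 0.747.

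**Figure D4:**
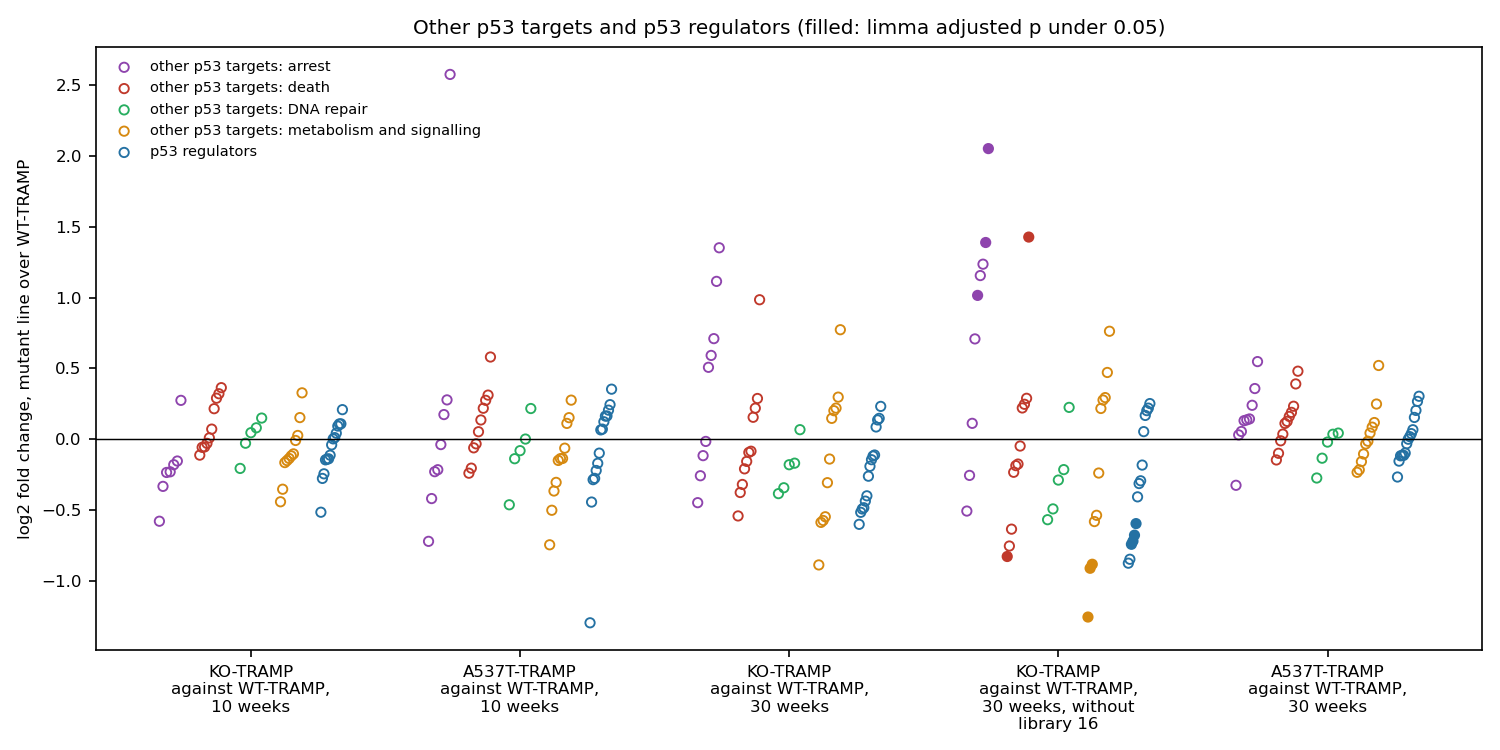
Log2 fold changes of the other p53 targets and p53 regulators (1 point per gene) in the 4 comparisons. The column just before A537T-TRAMP at 30 weeks shows KO-TRAMP at 30 weeks without library 16. Filled points passed a limma adjusted p under 0.05. No gene is filled in the 4 comparisons and 12 of 51 are filled in the column without library 16.

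The 30-week knockout result depended on library 16. Without it, 3064 of 16950 genes passed the test (18.1%), in place of 36 of 16900, and 12 of the 51 other targets and regulators did (23.5%). Btg2 (1.02, limma adjusted p 0.0212), Sfn (1.39, 0.0315), Plk3 (2.05, 0.0403) and Pmaip1 (1.43, 0.0463) rose, of which Btg2, Sfn and Plk3 act in growth arrest or checkpoint signalling and Pmaip1 encodes the BH3-only protein Noxa. Apaf1 (−0.83), Pml (−1.26), Tap1 (−0.88), Slc19a2 (−0.91), Mdm4 (−0.60), Ep300 (−0.74), Crebbp (−0.68) and Trp53bp2 (−0.72) fell, with limma adjusted p from 0.0196 to 0.0450. Mdm4 is a partner of Mdm2 that restrains p53, and Ep300 and Crebbp are acetyltransferases that act as its coactivators. None of the 10 members passed, the smallest adjusted p being 0.0514 for Bax. That fit holds 2 knockout libraries, 17 and 18, and keeps control library 12. The independence of libraries 12 and 18 is in doubt, and with it the p-values and counts of this fit. Both knockout libraries had high neuroendocrine markers (0.144% and 0.0900% of reads). Their proliferation markers took 0.302% and 0.208% of reads, against 0.0755% in library 16 and 0.0782% to 0.146% in WT-TRAMP. With libraries 12 and 18 both left out instead, 0 of 16889 genes passed by limma, 343 had an unadjusted p under 0.05, and none of the 343 was a member. All 12 proliferation markers were higher in the knockout at 30 weeks and all 12 lower in A537T-TRAMP at 10 weeks (median −0.38), with 0 passing the test. Their part in the levels of the p53 targets was not tested.

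Within tables, the genes whose log2 levels ran most like those of Cdkn1a over the 6 libraries were none of the 6 members that could be ranked. The mean Pearson r over the 4 tables, which share their WT-TRAMP libraries within an age, was 0.913 for Sept11, 0.913 for Trib1 and 0.904 for Pea15a, among 9179 genes with a mean of at least 100 normalised counts in each table. Phlda3, Eda2r and Bbc3 lay below that level and were not ranked. Cdkn1a itself lay below it at 10 weeks, with means of 22.1 in WT-TRAMP and 44.0 in KO-TRAMP, so sampling of reads limits these values. Bax had 0.33, Trp53inp1 0.27, Mdm2 −0.01, Ccng1 −0.09, Sesn2 −0.32 and Trp53 −0.34. For Trp53 the closest of 9178 genes were Tor1aip1 (0.875), Nup50 (0.860) and Slc36a1 (0.844), while Sesn2 had 0.58 and ranked at 321 and Mdm2 had 0.04. With 6 libraries per table these values describe the libraries and carry no test.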

How the data were processed

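Per the labels and the study's methods, reads of 18 TRAMP prostate libraries (TruSeq RNA-Seq, NovaSeq) were trimmed with Trim Galore 0.4.1 and cutadapt 1.18, aligned with STAR 2.7.3a to GRCm38.p6, quantified with Salmon in stranded mode and summarised per gene. The authors deposited 4 tables of normalised counts, 1 per mutant line and age, made with DESeq2 1.26. This deposited signal was in each library a whole count times 1 factor: 100% of values above 0 were whole multiples within 0.01. Whole counts were therefore recovered by division and are called reads here. Each WT-TRAMP library is in both tables of its age, and only 30.9% to 37.6% of its recovered counts were identical between them. The recovered counts thus depend on the table and cannot all be raw reads. Levels in RPM, edgeR and DESeq2 rest on these counts. The authors' own fold changes and p-values, held in further tables, were not used.

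Groups are those of the labels, which do not name the table columns. By inference, a column shared by the 2 tables of 1 age was assigned to WT-TRAMP, and every other column to the mutant line in the name of its table, where "Mut" was read as A537T-TRAMP. The headers number the libraries but give no replicate number. WT-TRAMP values of the members differed between the 2 tables of an age by at most 6.67% (Bbc3 33.3%), so every test stayed within 1 table. Levels across ages or tables are RPM, with WT-TRAMP taken from the knockout table.

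Genes with a mean normalised count of at least 10 were tested on log2(normalised count + 1) with limma 3.58.1 in R 4.3.3 (lmFit, eBayes with trend), and p-values were adjusted by Benjamini-Hochberg over all genes. Fold changes on this scale understate those of low genes. The difference between ages used 12 libraries with a separate intercept per table. The labels give 3 mice per group, so p-values measure the spread between mice, but libraries 12 and 18 lay between the other 2 of their group and may not be independent of them, which leaves the n and p-values at 30 weeks in doubt. Alternatives were pseudocounts of 0.5 and 5, no filter, a minimum mean of 50, TMM scaling, edgeR 4.0.16 (quasi-likelihood) and DESeq2 1.42.0 on recovered whole reads, and leaving out each library. The fits were tested on simulated counts. Symbols matched 55107 of 55469 gene IDs. Promoters are from RefSeq. Figures were drawn with matplotlib 3.10.9.

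The members and gene lists were chosen with earlier results of these data known. Among the other targets and regulators, genes were named if they passed the test, and otherwise the 2 with the smallest p in each direction. The 3 genes most like Cdkn1a and Trp53 by mean Pearson r were also named. Libraries 12 and 18 were left out together, and ages without each library compared, after seeing the data.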

Additional observations from a re-analysis of the deposited data

How the results depend on the processing

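No member passed an adjusted p of 0.05 under any alternative run. Over pseudocounts, filters, TMM scaling, edgeR and DESeq2, 347 of 350 member values kept their direction and 3 reversed: Bbc3 in KO-TRAMP at 10 weeks was 0.061 by edgeR and 0.055 by DESeq2 (−0.05 by limma), and the age difference of Ccng1 in A537T-TRAMP was −0.026 by edgeR (0.04 by limma). With libraries 12 and 18 both left out, a choice made after seeing the data, Sesn2 in KO-TRAMP at 30 weeks was 0.087 in place of −0.05.

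Leaving out 1 library at a time, which keeps 2 in its group, 435 of 480 values kept their direction. The ranges that crossed 0 were, in KO-TRAMP at 10 weeks, Mdm2 −0.024 to 0.082, Ccng1 −0.034 to 0.17, Bbc3 −0.37 to 0.36, Phlda3 −0.18 to 0.16, Eda2r −0.0099 to 0.27 and Trp53inp1 −0.19 to 0.088. In A537T-TRAMP at 10 weeks they were Mdm2 −0.0039 to 0.23, Bbc3 −0.31 to 0.20, Sesn2 −0.16 to 0.36 and Trp53inp1 −0.030 to 0.75. At 30 weeks they were Bbc3 −0.0095 to 0.52 and Sesn2 −0.22 to 0.084 in KO-TRAMP, and Trp53 −0.011 to 0.22, Cdkn1a −0.25 to 0.090, Mdm2 −0.072 to 0.17 and Eda2r −0.14 to 0.23 in A537T-TRAMP. For the age difference they were Trp53 −0.21 to 0.12, Bbc3 −0.13 to 0.60 and Sesn2 −0.040 to 0.26 in KO-TRAMP, and Mdm2 −0.20 to 0.044, Ccng1 −0.15 to 0.33, Bax −0.18 to 0.18, Sesn2 −0.034 to 0.49 and Trp53inp1 −0.37 to 0.41 in A537T-TRAMP.

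The other targets and regulators called in KO-TRAMP at 30 weeks numbered 0 by limma, 1 by DESeq2 (Ephx1) and 0 to 12 leaving out 1 library, with 12 without library 16. The members higher at 30 weeks without overlap in A537T-TRAMP numbered 5 to 8 leaving out 1 library. Over all genes limma called 2, 1, 36 and 0 (knockout and A537T-TRAMP at 10 weeks, then the same at 30 weeks), DESeq2 81, 148, 805 and 165, and edgeR 0, 0, 15 and 0. Leaving out 1 library gave limma counts of 1 to 9, 0 to 65, 0 to 3064 and 0 to 145, the highest without libraries 3, 4, 16 and 11. The cause was not tested.

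With 3 mice per group an exact permutation test could not go below 0.1. The low read counts of Bbc3, Cdkn1a, Eda2r and Phlda3 widen their intervals. No paired analysis was possible because the table headers carry no replicate number.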
